A study of Mus musculus with 12 samples.

Results

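The genes described here make, sense, take up, store and export cholesterol. They are 34 of the 21899 genes in the deposited table, taken by symbol: 19 enzymes of the mevalonate and sterol routes, 4 genes of SREBP2 control, 5 of uptake, transfer and storage, 5 of export and the LXR receptors, and Mmab, the gene beside Mvk. Colon RNA came from 12 mice, all treated for 7 days with 2.5% DSS (dextran sulfate sodium, which damages the epithelium of the colon and inflames it). In 6 mice, labelled CKO, Pck1 was deleted in intestinal epithelial cells, and 6 littermates, labelled WT, were the controls. Pck1 encodes the cytosolic phosphoenolpyruvate carboxykinase of gluconeogenesis. The sources used here do not give the driver of the deletion or the age and sex of the mice, and no mice without DSS were used here.

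Cells build cholesterol from acetyl-CoA in the cytosol and endoplasmic reticulum. Condensation steps make HMG-CoA, the mevalonate steps make isoprenoids, and farnesyl units join to squalene, which is oxidised, closed into lanosterol and trimmed to cholesterol. SREBP2, held in the endoplasmic reticulum by SCAP and the INSIG proteins while sterol is plentiful, is cut and moves to the nucleus when sterol runs low, where it raises transcription of these enzymes. LXR receptors act on the other side: bound by oxysterols, they raise the exporters ABCA1 and ABCG1 and MYLIP, which removes lipoprotein receptors. The colon epithelium renews constantly and needs sterol for new membranes.

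Upstream sequences are shown for the members on which the results below turn: Hmgcs1 and Lss, which passed the test, the paralogs Insig1 and Insig2, which stood apart from each other, and the stretch that Mvk and Mmab share. All come from the set of RefSeq promoters (GRCm38.p6) used here. That set held an entry for 28 of the 34 members and none for Fdps, Fdft1, Sqle, Npc1, Stard4 and Abcg1. Each run is written 5′ to 3′ on the gene's strand and ends at the base before the start. Capitals mark the NF-Y box CCAAT on either strand. They also mark TCACNCCAC, the core of the sterol response element that SREBP binds.
Hmgcs1: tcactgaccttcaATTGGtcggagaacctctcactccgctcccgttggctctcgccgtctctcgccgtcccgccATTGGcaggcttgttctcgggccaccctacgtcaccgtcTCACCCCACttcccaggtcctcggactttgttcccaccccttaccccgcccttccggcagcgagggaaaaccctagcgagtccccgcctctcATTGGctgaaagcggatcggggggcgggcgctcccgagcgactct
Lss: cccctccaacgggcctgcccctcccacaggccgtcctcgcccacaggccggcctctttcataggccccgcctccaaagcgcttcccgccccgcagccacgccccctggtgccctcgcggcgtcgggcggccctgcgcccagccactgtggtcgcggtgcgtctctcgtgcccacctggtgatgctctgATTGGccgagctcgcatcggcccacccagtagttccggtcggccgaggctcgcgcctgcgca
Insig1: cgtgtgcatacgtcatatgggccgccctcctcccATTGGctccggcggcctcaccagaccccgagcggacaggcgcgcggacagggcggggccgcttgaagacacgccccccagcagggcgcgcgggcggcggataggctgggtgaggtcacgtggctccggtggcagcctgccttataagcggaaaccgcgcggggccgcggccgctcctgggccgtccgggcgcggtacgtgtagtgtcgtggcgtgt
Insig2: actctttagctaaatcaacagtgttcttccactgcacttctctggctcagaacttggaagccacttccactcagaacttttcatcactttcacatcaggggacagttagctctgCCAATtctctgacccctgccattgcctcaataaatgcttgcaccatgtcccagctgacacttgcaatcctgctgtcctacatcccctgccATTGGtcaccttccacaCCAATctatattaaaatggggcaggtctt
Mvk to Mmab: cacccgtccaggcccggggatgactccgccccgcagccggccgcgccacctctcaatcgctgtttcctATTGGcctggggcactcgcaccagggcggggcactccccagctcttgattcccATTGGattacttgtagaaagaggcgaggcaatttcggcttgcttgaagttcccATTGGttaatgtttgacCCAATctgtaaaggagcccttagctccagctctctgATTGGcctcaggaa
Hmgcs1 is chr13:119690101-119690350 (+), Lss is chr10:76531355-76531604 (+), Insig1 is chr5:28071162-28071411 (+) and Insig2 is chr1:121332590-121332839 (-), each 250 bases, and for Insig2 the most upstream of its entries is shown. The last is the whole 241 bases between the starts of Mvk (+) and Mmab (-), chr5:114444028-114444268, written on the strand of Mvk.

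Hmgcs1 held the sterol response element core once, as TCACCCCAC, beginning 137 bases before its start, between CCAAT boxes at 176 and 45 bases. In the 250 bases upstream, searched on both strands, the core was found in 1 of 28 members and in 1.28% of the 15643 genes of the table with an entry. CCAAT was found in 23 of 28 members (82.1%), against 40% of those genes, and in 15 of the 16 enzymes with an entry. GGGCGG, the GC box, was found in 22 of 28 members (78.6%), against 50.2%. CACGTG, the E-box, was found in 6 of 28 members (21.4%), against 8.2%. The direct repeat of the LXR type was found in 0 of 28, against 0% of those genes, so its absence does not set the members apart. The Mvk to Mmab stretch held 5 CCAAT boxes, Hmgcs1 and Insig2 held 3 each, and Lss and Insig1 held 1 each. These are matches of letters, and shorter or altered forms of each element were not searched. Mvk and Mmab count as separate members though they share a stretch, and the 15643 genes were not limited to tested ones.

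Libraries held 15348192 to 19138507 counts. Pck1 was 1.73 to 4.65 TPM (a transcript abundance scaled for gene length and depth) in the knockouts and 24.4 to 54.6 TPM in the controls, with no overlap. The 10 epithelium markers, among them Epcam, Cdx2 and Krt20, were present in every library, and their summed level was 12100 to 13400 TPM in the knockouts and 11300 to 16600 TPM in the controls. Neutrophil markers summed to 592 to 3420 TPM against 246 to 1460 TPM, monocyte and macrophage markers to 1400 to 2730 TPM against 988 to 1770 TPM, and fibroblast markers to 1770 to 4310 TPM against 1030 to 2230 TPM. Exocrine pancreas markers reached 33100 TPM in control replicate 6 and lay between 63.9 and 4520 TPM in the other libraries. The colon wall was sequenced whole, so fewer cells of a type and less RNA per cell cannot be told apart.

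Among the 19 enzymes of cholesterol synthesis 18 had log2 fold changes below 0 in the knockout colon and 2 passed the test. The medians of uptake, transfer and storage and of export and LXR lay near 0, with the importer Npc1l1 too low to be tested. Of the 34 members 33 passed the filter on low counts and were tested. Hmgcs1 and Lss fell in edgeR's quasi-likelihood test (adjusted p under 0.05 over all 14393 tested genes). That is 2 of 33 members, where 0.0278% of all tested genes were called lower and the same 0.0278% higher. No member was called higher by edgeR, with 1 at an unadjusted p under 0.05. DESeq2 called 1 member higher, Abca1, where it called 7.66% of all tested genes higher. Of the 33 members 26 had a log2 fold change below 0, against 54.9% of all tested genes, and their median was -0.52, against -0.03. At an unadjusted p under 0.05 there were 20 members lower and 1 higher, against 9.48% and 13.1% of all tested genes. Many genes lay just past the threshold: at an adjusted p under 0.1 there were 19 members lower and 1 higher, against 3.02% and 6.59%. By the authors' deposited table, 19 members were lower and 1 higher at an FDR under 0.05, against 1.7% and 4.65% of its genes.

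**Figure D1:**
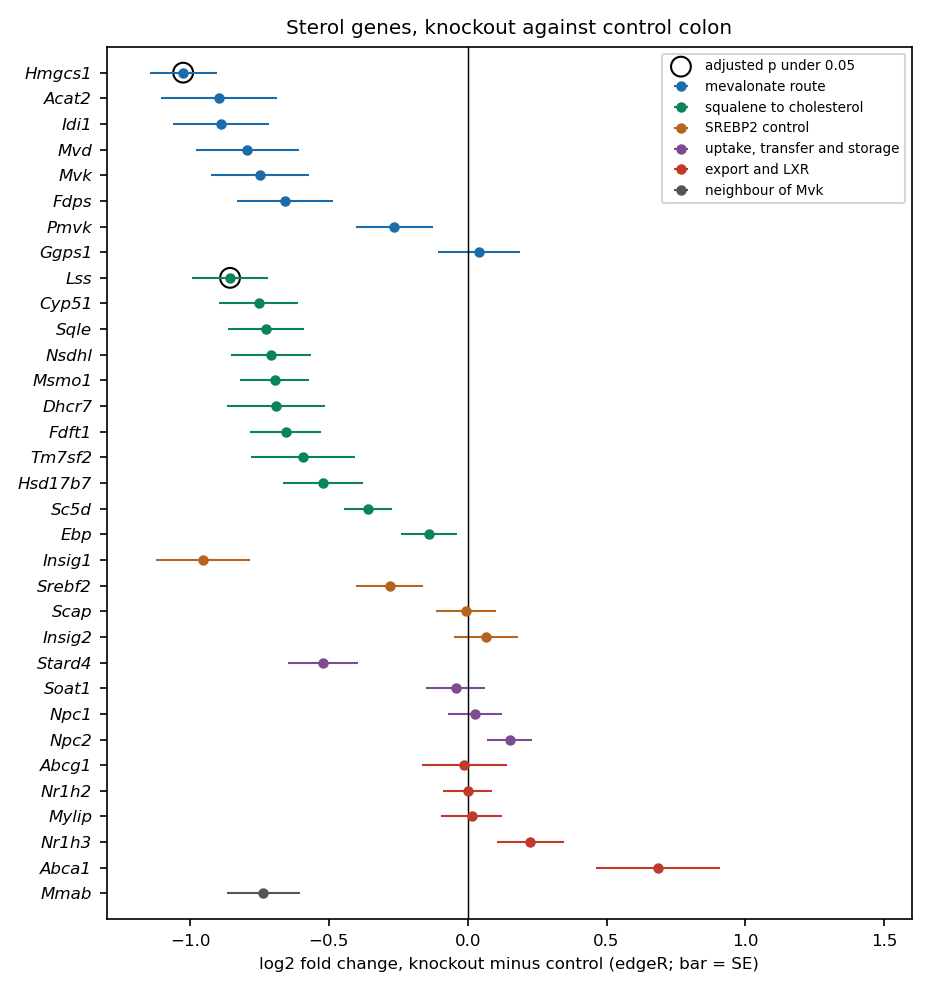
Log2 fold change (knockout minus control, edgeR) of the 33 tested genes on the x axis, with bars of 1 SE, grouped by role on the y axis, with open rings around the genes with an adjusted p under 0.05. Of the enzymes 18 of 19 lie below 0, down to -1.03 for Hmgcs1, while Abca1 lies highest at 0.69.

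Hmgcs1 (ENSMUSG00000093930), which joins acetyl-CoA to acetoacetyl-CoA to make HMG-CoA, showed the largest fold change among the members. Its level, as CPM (counts scaled to a common library size with the TMM method), was 185 to 256 CPM in the knockouts (median 222) and 320 to 511 CPM in the controls (median 469). Every knockout lay below every control, with a wide gap between the highest knockout and the lowest control. The log2 fold change was -1.03 ± 0.12 (SE), with an edgeR adjusted p of 0.00679. The call held when any 1 of the 12 libraries was left out, at adjusted p values of 0.000533 to 0.0351. It was lost with the marker covariates described below. An exon of Hmgcs1 overlaps an antisense gene, as does one of Lss, and whether counting used strand was not stated.

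Of the other 7 genes of the mevalonate route 6 were below 0 and none passed. Idi1, the isomerase that makes dimethylallyl from isopentenyl diphosphate, was 88.7 to 184 CPM in the knockouts (median 151) and 192 to 315 CPM in the controls (median 273). The groups did not overlap, and the log2 fold change was -0.89 ± 0.17 (SE; edgeR adjusted p = 0.0512). Acat2, the thiolase of the first step, stood at -0.90 ± 0.21, Mvd, the decarboxylase, at -0.79 ± 0.19, and Fdps, which makes farnesyl diphosphate, at -0.66 ± 0.17 (log2 fold change, SE). Pmvk, the phosphomevalonate kinase, stood nearer to 0 at -0.26 ± 0.14. Ggps1 leaves the sterol route to make the geranylgeranyl lipid used to anchor proteins, and it was the only enzyme above 0, at 0.04 ± 0.15, with 25.7 to 44.3 CPM in the knockouts and 24.3 to 41.4 CPM in the controls. Of these 8 genes, 7 were below 0 with a median of -0.77.

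Lss (ENSMUSG00000033105), lanosterol synthase, closes oxidosqualene into the first sterol. It was 30.6 to 41.0 CPM in the knockouts (median 37.8) and 45.9 to 90.4 CPM in the controls (median 67.0). The groups did not overlap, and the controls spread far wider than the knockouts. The log2 fold change was -0.86 ± 0.14 (SE), with an edgeR adjusted p of 0.0454. This call was narrow: it was lost with upper-quartile scaling (0.053), without the low-count filter (0.0504) and when 1 of 9 libraries was left out (up to 0.13), and it held without control replicate 4, control replicate 6 or knockout replicate 4.

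Msmo1, which removes the methyl groups at carbon 4 of the sterol ring, had the highest length-scaled level of all members in the controls, at 269 ± 39.4 TPM (SD, n = 6), ahead of Hmgcs1 at 250.1 ± 37.4 TPM. It was 151 to 232 CPM in the knockouts (median 189) and 255 to 368 CPM in the controls (median 306). The groups did not overlap on either scale, and the log2 fold change was -0.70 ± 0.13 (SE; edgeR adjusted p = 0.0512). All 11 genes from squalene to cholesterol were below 0, with a median of -0.69. Squalene synthase Fdft1 stood at -0.66 ± 0.13, squalene epoxidase Sqle at -0.73 ± 0.14, the demethylase Cyp51 at -0.75 ± 0.14, and the reductase of the last step Dhcr7 at -0.69 ± 0.18. Nsdhl (-0.71 ± 0.15), Tm7sf2 (-0.59 ± 0.19) and Hsd17b7 (-0.52 ± 0.14), which act on the ring between lanosterol and zymosterol, lay close to these. Sc5d, the desaturase, stood at -0.36 ± 0.09 and Ebp, the isomerase, at -0.14 ± 0.10, the weakest of the 11. Ebp was 38.5 to 54.1 CPM in the knockouts and 48.5 to 65.3 CPM in the controls.

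Counted by separation, 8 of the 19 enzymes and Mmab had every knockout below every control in CPM, against 0.639% of all tested genes. In TPM it was 3 members, Hmgcs1, Msmo1 and Mmab, against 0.271%. Together the 19 enzymes made up 0.101% to 0.137% of all TPM in the knockouts (median 0.116%) and 0.139% to 0.233% in the controls (median 0.176%). The lowest control and the highest knockout were thus nearly equal in this sum, at 1394 and 1371 TPM.

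**Figure D2:**
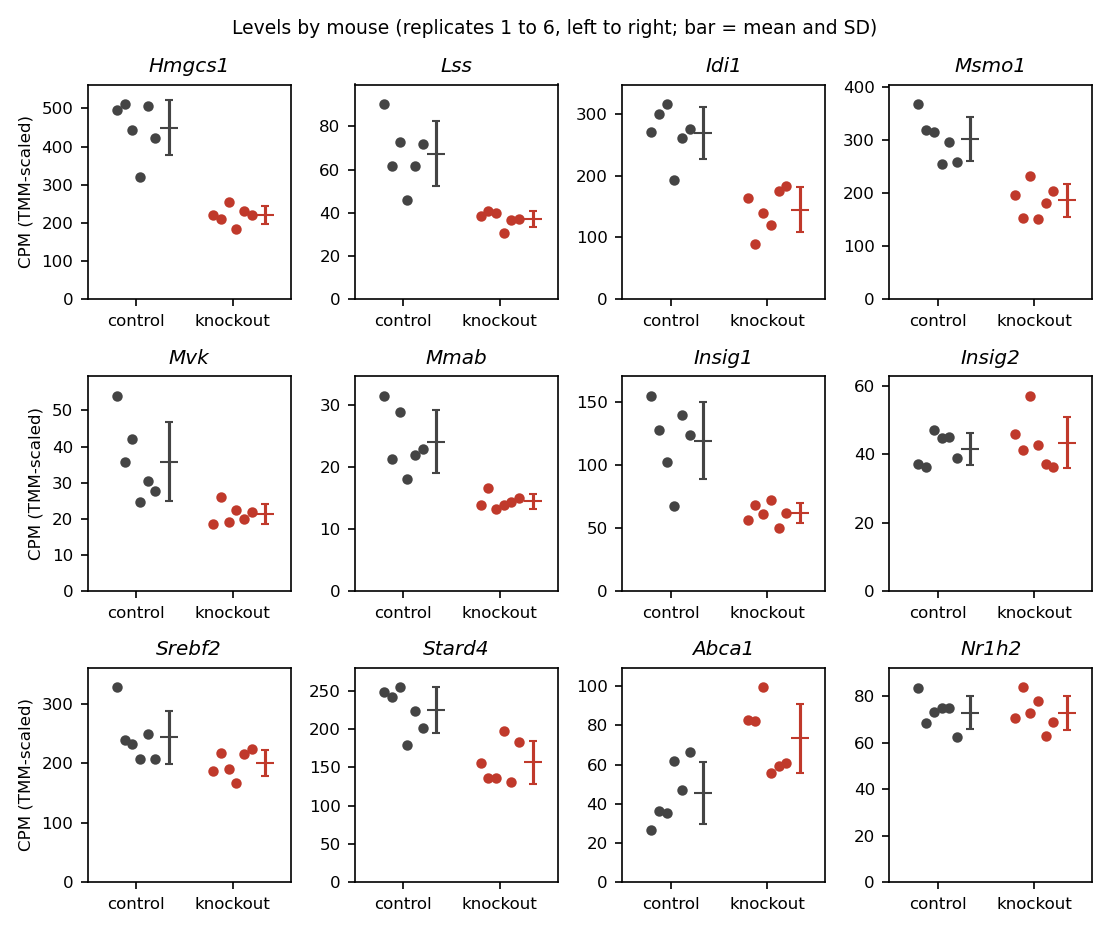
Level in CPM (y axis, from 0) of 12 of the genes in each of 6 control and 6 knockout mice, with the mean and SD beside each group. Hmgcs1, Lss, Idi1, Msmo1 and Mmab show no overlap between the groups, while Insig2 and Nr1h2 overlap.

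Mmab encodes an enzyme that activates vitamin B12 and has no step in sterol synthesis, but its start lies 241 bases from that of Mvk, on the opposite strand. Mmab was 13.2 to 16.6 CPM in the knockouts (median 14.1) and 18.1 to 31.6 CPM in the controls (median 22.4), without overlap. Mvk, mevalonate kinase, was 18.6 to 25.9 CPM (median 20.9) against 24.5 to 54.1 CPM (median 33.1), and only 1 knockout lay above the lowest control. Their log2 fold changes were alike, -0.74 ± 0.13 for Mmab and -0.75 ± 0.18 for Mvk (SE; edgeR adjusted p = 0.0512 and 0.0542). Cyp51 (-0.75 ± 0.14) and Sqle (-0.73 ± 0.14) had log2 fold changes near these. In both Mvk and Mmab control replicate 1 was the highest library, as in 15 of the 19 enzymes.

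Within SREBP2 control, Insig1 stood apart from its partners. Insig1, which holds SCAP in the endoplasmic reticulum and is itself an SREBP target, was 49.95 to 72.4 CPM in the knockouts (median 61.4) and 67.8 to 156 CPM in the controls (median 126). The groups overlapped through control replicate 4, the lowest control at 67.8 CPM, while the other 5 controls lay above every knockout. The log2 fold change was -0.95 ± 0.17 (SE; edgeR adjusted p = 0.0512). Insig2, its paralog, was 36.4 to 57.2 CPM in the knockouts and 36.4 to 47.1 CPM in the controls, with a log2 fold change of 0.07 ± 0.12. Srebf2, the gene of SREBP2 itself, was 167 to 225 CPM (median 203) against 206 to 328 CPM (median 236), at -0.28 ± 0.12 (edgeR adjusted p = 0.186). Scap, the escort protein, was 57.6 to 79.2 CPM against 59.7 to 89.6 CPM, at -0.01 ± 0.11.

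The Insig1 to Insig2 ratio sets the paralogs side by side within each library. In TPM, the log2 ratio was -0.10 to 0.54 in the knockouts (median 0.39) and 0.50 to 1.85 in the controls (median 1.41). Only the lowest control lay within the range of the knockouts. The means differed by -1.01 (knockout minus control, SDs 0.30 and 0.48, n = 6 each; exact two-sided permutation p = 0.00649 over 924 arrangements, unadjusted). The ratio rests on Insig1, which was not called, and was chosen with earlier results known, so this p is not independent evidence.

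Uptake, transfer and storage genes were mixed. Stard4, a carrier that moves cholesterol between membranes and an SREBP2 target, was 131 to 198 CPM in the knockouts (median 146) and 179 to 255 CPM in the controls (median 233). Of the knockouts 4 lay below all controls, and the log2 fold change was -0.52 ± 0.13 (SE; edgeR adjusted p = 0.057). Npc2, which hands cholesterol to NPC1 in lysosomes, had the highest mean TPM of this group in the controls, 90.8 against 85.8 for Stard4. In CPM it lay below Stard4 in the controls. It was 170 to 211 CPM in the knockouts against 155 to 194 CPM, at 0.15 ± 0.08 (edgeR adjusted p = 0.299). Npc1 stood at 0.03 ± 0.10 and Soat1, which esterifies cholesterol for storage, at -0.04 ± 0.11. Npc1l1, the intestinal cholesterol importer of the small intestine, was not tested. Its counts were 0 to 10 per library, at most 0.234 TPM.

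On the export and LXR side no member passed, and the median was 0.01 (-0.01 to 0.69 over 5 genes). Abca1, which loads cholesterol onto apolipoprotein A-I, was 55.8 to 99.6 CPM in the knockouts (median 71.4) and 26.7 to 66.5 CPM in the controls (median 41.6). Knockout replicates 1, 2 and 3 lay above every control and the other 3 within the control range. Its log2 fold change was 0.69 ± 0.22 (SE; edgeR adjusted p = 0.0941), and 0.18 with the neutrophil marker level as a covariate. Of the 8 monocyte and macrophage markers 0 were called by edgeR and 5 were higher at an unadjusted p under 0.05 (13.1% of all tested genes). The largest was Cd14, at 1.25 ± 0.25 (edgeR adjusted p = 0.0522). Adgre1 (0.07 ± 0.15), Lyz2 (0.30 ± 0.18) and Csf1r (0.39 ± 0.19) did not reach that unadjusted p. In CPM, C1qb was the only marker of the 8 to be higher in every knockout than in any control, as were 127 of all 14393 tested genes. In TPM its groups overlapped. The part of these cells in the value of Abca1 was not tested. Abcg1, the second exporter, was 12.9 to 20.5 CPM against 12.1 to 21.1 CPM, at -0.01 ± 0.15. Its TPM differed more, 7.41 ± 2.59 against 5.69 ± 1.17 (SD, n = 6), since the deposited TPM is not in a fixed ratio to the counts. Nr1h2 (LXR beta), the most abundant of the group in TPM, was 62.8 to 83.9 CPM against 62.4 to 83.4 CPM, at 0.00 ± 0.09. Nr1h3 (LXR alpha) stood at 0.23 ± 0.12 and Mylip at 0.01 ± 0.11.

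**Figure D3:**
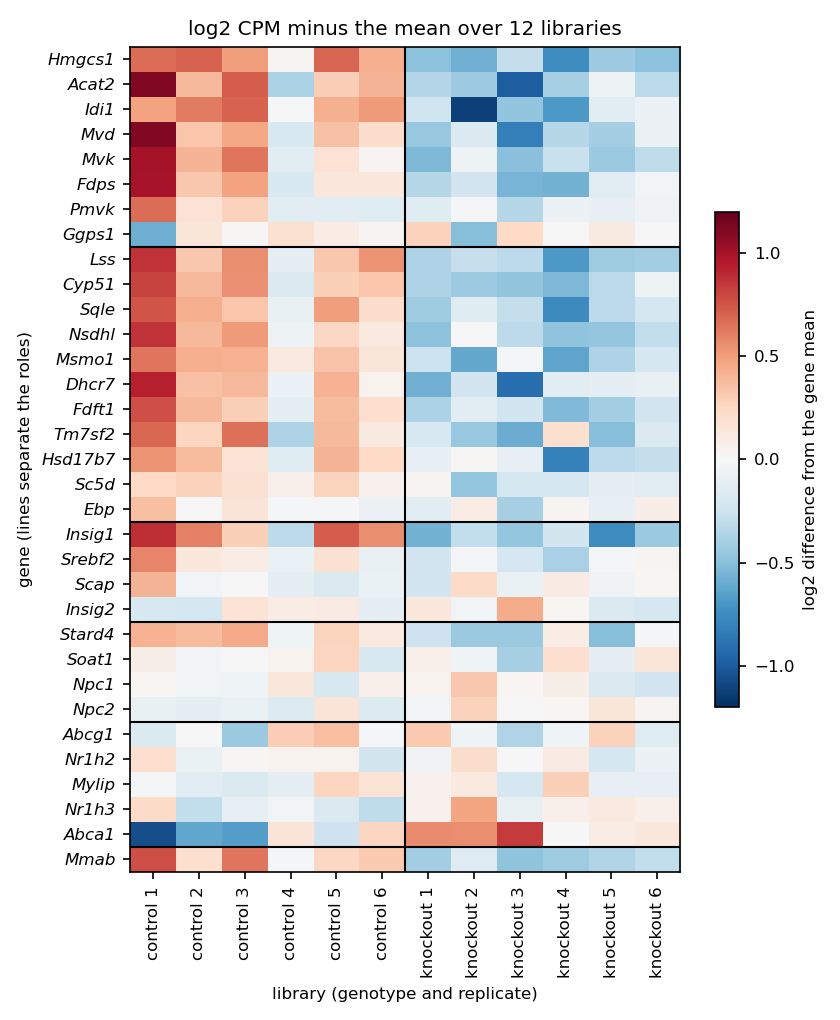
Log2 CPM of each tested gene minus its mean over the 12 libraries (colour, -1.2 to 1.2), with genes by role in rows and libraries in columns. Control replicate 1 is the highest library in 15 of the 19 enzymes, and control replicate 4 is the lowest control in 15 of them.

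The mice of one genotype were not alike. Control replicate 1 was the highest of the 12 libraries in 15 of the 19 enzymes, and control replicate 4 was the lowest control in 15. The mean log2 CPM of the enzymes, as a difference from the mean of all libraries, was -0.40 to -0.18 in the knockouts. It was 0.19 to 0.68 in 5 controls and -0.10 in control replicate 4. Without control replicate 4 there were 19 members called lower by edgeR, against 1.93% of all genes tested. Without knockout replicate 4 there were 18, against 2.78%, and without control replicate 6 there were 14, against 0.699%. Leaving out any other library left 1, Hmgcs1. DESeq2 on all libraries called 19, against 2.98%.

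Marker levels of other cell content also leaned with genotype. The epithelium marker level was -0.22 to 0.03 in the knockouts and -0.12 to 0.28 in the controls (mean log2 CPM of 10 genes, difference from the mean of all libraries), and the groups overlapped. Of the 10 markers 0 were called by edgeR, and 5 (Epcam, Cdh1, Vil1, Krt8 and Cdx2) were lower at an unadjusted p under 0.05, against 9.48% of all tested genes. With that level as a covariate the log2 fold change was -0.88 for Hmgcs1 (edgeR adjusted p = 0.194) and -0.73 for Lss (0.373), and all 19 enzymes were below 0. Per 1000 TPM of epithelium markers the enzymes summed to 78.5 to 114 TPM in the knockouts (median 89.5) and 107 to 142 TPM in the controls (median 139).

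The neutrophil marker level was -0.54 to 2.50 in the knockouts and -2.20 to 1.05 in the controls (mean log2 CPM of 8 genes, difference from the mean of all libraries). Of the 8 markers 0 were called by edgeR, and 6 were higher at an unadjusted p under 0.05, against 13.1% of all tested genes. Control replicate 4, the lowest control in the enzymes, was the highest control in neutrophil markers, at 1.05. Knockout replicates 4, 5 and 6 lay below it, at -0.13, -0.54 and 0.18, and their enzyme levels were -0.40, -0.27 and -0.18, against -0.10 in that control. Knockout replicates 1, 2 and 3 lay above it, at 1.58, 2.50 and 2.41, with enzyme levels of -0.29, -0.30 and -0.40. With the neutrophil level as a covariate the log2 fold change was -0.88 for Hmgcs1 (edgeR adjusted p = 0.308) and -0.80 for Lss (0.76), and the median of the 33 members was -0.29. No member passed with either covariate. The part of epithelium or neutrophil content in the fold changes was not tested beyond these fits. Of the 6 fibroblast markers 0 were called by edgeR and 5 were higher at an unadjusted p under 0.05. The part of fibroblast content was not tested.

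**Figure D4:**
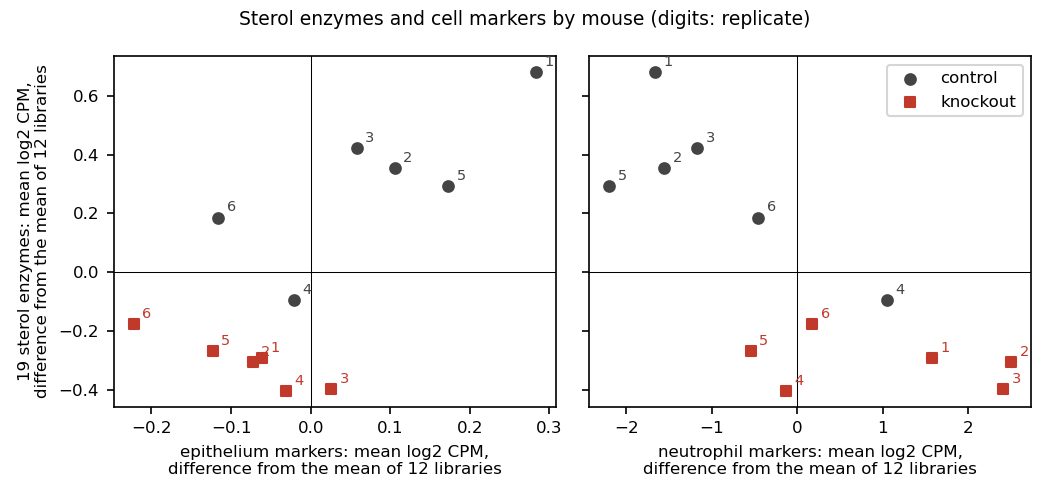
Mean log2 CPM of the 19 enzymes (y axis) against that of the epithelium markers (left x axis) and neutrophil markers (right x axis), each as a difference from the mean of 12 libraries, with 1 point per mouse and digits for the replicate. The 6 knockouts lie between -0.40 and -0.18 on the y axis at neutrophil levels from -0.54 to 2.50, and control 4 lies at -0.10 with the highest neutrophil level of the controls.

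Of 52 other genes of the pathway, in 7 lists, 0 were called in either direction by edgeR, with 10 lower and 5 higher at an unadjusted p under 0.05, against 9.48% and 13.1% of all tested genes. Their median was -0.06, against -0.03 over all tested genes. The list nearest to the enzymes was acetyl-CoA supply, with 5 of 5 below 0 and a median of -0.68. It was led by Aacs (-0.83 ± 0.15, SE), which activates acetoacetate, and the groups of Aacs did not overlap. Isoprenoid branches had a median of -0.02 over 13 genes, with the smallest p for Pdss1 (-0.31 ± 0.10), of ubiquinone side-chain synthesis. SREBP processing and sterol-regulated degradation had a median of -0.09 over 8 genes, with the smallest p for Syvn1 (0.35 ± 0.12), an endoplasmic reticulum ubiquitin ligase.

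Among electron donors and helpers of sterol enzymes the smallest p was that of Tmem97 (-0.59 ± 0.12, SE; edgeR adjusted p = 0.0522), a sterol-responsive protein that binds NPC1. The median of those 6 genes was -0.22. Sterol transfer and ester hydrolysis stood at a median of -0.04 over 11 genes, led by Osbpl2 (-0.27 ± 0.11), and LXR partners and targets at -0.04 over 5, led by Lpcat3 (-0.11 ± 0.08). Oxysterol synthesis was the one list with a median well above 0, at 0.46 over 4 genes. Cyp7b1, an oxysterol hydroxylase, stood at 1.42 ± 0.38 (edgeR adjusted p = 0.063). Ch25h, which makes 25-hydroxycholesterol and was chosen after its values were seen, stood at 0.86 ± 0.29 (0.0998). The list was split, since Hsd3b7 stood at 0.059 ± 0.136 and Cyp27a1 at -0.024 ± 0.225.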

How the data were processed

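RNA-seq of colon from 6 knockout and 6 control mice was used, and groups and replicate numbers come from the labels. Trizol extraction and a SMARTER mRNA-Seq kit were used, per the labels' protocols. The authors deposited 1 table with whole-number read counts and TPM per gene and library, a mean TPM per group, a log2 fold change (log2 of one mean TPM over the other), a p-value and an FDR. The test, aligner, counter and use of strand were not given in the sources used here, and the submitters' processing notes list GRCm38, mm10 and mm39 without roles. The table held 0 columns of other samples.

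Counts were fitted in R 4.3.3 with edgeR 4.0.16: filterByExpr (minimum count 10), TMM, quasi-likelihood F test of knockout minus control over all 12 libraries, Benjamini-Hochberg adjustment over 14393 genes, threshold 0.05. The SE is the fold change divided by the square root of F. CPM are TMM-scaled, and levels over several genes use log2 CPM with a prior count of 2. Alternatives used DESeq2 1.42.0 and limma 3.58.1. The procedure was tested on simulated data. The lowest chi-square per gene over 66 combinations of libraries was 19.4, so no library was a copy of another. Counting error is small at these depths, and p-values set the difference between groups against the spread between libraries. Each mouse gave a single library, so differences between mice cannot be told from those of dissection and preparation.

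Members and gene lists were chosen with earlier results of these data known. Values by library are given for called members, for the 2 smallest p and the highest TPM in each role, and for Insig1, Insig2, Srebf2, Abca1, Abcg1, Mvk and Mmab. From each list of other genes the smallest p is named.

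In GENCODE M21 (GRCm38), exons of 11 members overlap exons of another gene, 8 of them on the opposite strand (Hmgcs1, Lss, Idi1, Cyp51, Fdft1, Ggps1, Npc1 and Scap). Without strand, such reads cannot be told apart: Ctsb, opposite Fdft1, averaged 13951 counts per library and Fdft1 2418. The 3 with overlaps on the same strand were Fdps, Nr1h3 and Tm7sf2, where strand does not help. Vps51, which overlaps Tm7sf2, averaged 466 counts per library and Tm7sf2 224. Acat2 has a near-identical copy, Acat3, so its value is uncertain.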

Additional observations from a re-analysis of the deposited data

Results flagged for a closer look

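In 68 groups of 6 values (34 genes in 2 genotypes, CPM) 6 held 1 sample far from the rest, where chance marks about 1 in 20 groups. Control replicate 1 stood apart in 3 genes: Srebf2 at 328 CPM with the next at 248, Scap at 89.6 with the next at 67.4, and Ggps1 at 24.3, below the next at 36.9. Knockout replicate 2 was high in Nsdhl, at 43.3 CPM with the next at 35.3, and in Nr1h3, at 19.5 with the next at 15.2. Control replicate 5 was high in Npc2, at 194 CPM with the next at 165.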

How the results depend on the processing

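The side of 0 held for every enzyme but Ggps1 under all alternatives, while the number of calls depended strongly on the test. Members called lower numbered 2 in the reported fit. They numbered 8 with DESeq2 size factors, 10 with library size only, 1 with upper quartile, 1 with no filter, 19 by DESeq2, 8 by limma voom, 9 by robust quasi-likelihood and 10 by limma-trend on log2(TPM + 1) or log2(TPM + 0.1). They numbered 0 with the epithelium or the neutrophil covariate. Over all genes, lower and higher calls were 4 and 4. They were 19 and 33 with DESeq2 size factors, 45 and 230 with library size only, 429 and 1103 by DESeq2, 19 and 30 by voom, and 21 and 32 by robust quasi-likelihood. On log2(TPM + 1) they were 48 and 355, on log2(TPM + 0.1) 48 and 365, and 1 and 0 with either covariate. With 1 library left out, members called lower ran from 1 to 19 and higher from 0 to 0, all genes lower from 2 to 402 and higher from 0 to 870, and the Insig1 to Insig2 log2 ratio from -1.17 to -0.90.

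Chosen after seeing the data were a threshold of 0.1, the likelihood ratio test and leaving out replicate 4 of both groups. Each gave 19 members lower and 1 higher, and all genes gave 435 and 949, 302 and 858, and 702 and 1209, lower and higher in that order. The cause of these differences was not tested.

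With the replicate number as a block, 0 members and 1 gene lower and 0 higher were called, Hmgcs1 had an edgeR adjusted p of 0.08, and the Insig ratio gave an exact sign-flip p of 0.0625 at -1.01. Same-numbered deviations over all tested genes correlated at -0.496 to 0.078, and 0 of 6 correlated best with their own number. This cannot exclude that same-numbered mice shared a litter or batch, since differences in cell content between mice also enter these correlations.

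Uncalled members near 0 changed side. In the order DESeq2 size factors, library size, no filter, DESeq2, log2(TPM + 1), log2(TPM + 0.1), neutrophil covariate and without replicate 4 of both groups, Abcg1 stood at 0.001, 0.033, 0.007, 0.001, 0.299, 0.338, 0.02 and 0.064. Nr1h2 ran from -0.052 to 0.128 over all alternatives, and those above 0 with all libraries were 0.001, 0.011, 0.013, 0.014, 0.022, 0.04, 0.046, 0.047 and 0.128. Scap stood at 0.006, 0.035, 0.003, 0.015 and 0.007 under other scalings, filters and DESeq2, and at 0.11 and 0.03 with the covariates. Soat1 stood at 0.003 with library size, 0.047 and 0.048 on TPM and 0.096 with the neutrophil covariate. Ggps1 stood at -0.064 with the epithelium covariate, Insig2 at -0.11 and Npc1 at -0.166 with the neutrophil covariate, and Mylip at -0.064 without replicate 4. With 1 library left out, the ranges were -0.053 to 0.13 for Ggps1, -0.057 to 0.086 for Scap, -0.029 to 0.111 for Insig2, -0.044 to 0.07 for Npc1, -0.089 to 0.022 for Soat1, -0.091 to 0.063 for Abcg1, -0.045 to 0.042 for Nr1h2 and -0.042 to 0.07 for Mylip.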
